A study of Homo sapiens with 30 samples.

Results

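The genes described here are the 7 cyclin-dependent kinase (CDK) inhibitor genes CDKN1A, CDKN1B, CDKN1C, CDKN2A, CDKN2B, CDKN2C and CDKN2D. They were chosen by name, and each is listed once, as 1 transcript, in a PRO-Seq table of 20367 gene symbols. All 7 had enough reads to be tested in every comparison. The data come from G401 cells, a malignant rhabdoid tumour line that lacks SNF5, the SWI/SNF subunit encoded by SMARCB1. Cells had been transduced with lentivirus and selected to carry a doxycycline-inducible EGFP, SNF5 or OmoMYC construct with an HA tag, where OmoMYC is a dominant-negative form of MYC and EGFP is the control. All groups, EGFP included, received 1 ug/ml doxycycline for 24 h. PRO-Seq, in which engaged RNA polymerases are made to extend their transcripts in isolated nuclei, was done in 3 samples per construct. Open chromatin was mapped by ATAC-Seq in 3 samples per construct, and MYC binding by ChIP-Seq in 2.

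CDK inhibitors bind cyclin-dependent kinases or their cyclin complexes and hold cells before DNA replication. The CIP/KIP genes CDKN1A, CDKN1B and CDKN1C encode p21, p27 and p57, which act on several cyclin-CDK complexes. The INK4 genes CDKN2A, CDKN2B, CDKN2C and CDKN2D encode p16, p15, p18 and p19, which bind CDK4 and CDK6 and thereby keep the retinoblastoma protein active. CDKN2A also encodes ARF, from an upstream start and in another reading frame, which binds and inhibits MDM2. CDKN2A and CDKN2B lie next to each other on chromosome 9p21, where the antisense RNA gene CDKN2B-AS1 (ANRIL) starts close to the ARF start and runs across CDKN2B. In rhabdoid cells CDKN1A and CDKN2A are known as genes that respond to SNF5, and CDKN1A, CDKN2B and CDKN2C are known to be repressed by MYC in other cell types.

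The promoters that the results below return to are those of p16, CDKN2B and CDKN1A. RefSeq promoter sequences of GRCh38.p14 were found for 6 of the 7 genes, with 9 starts between them, and none was found for CDKN1C. Each sequence below is the 250 bases upstream of a start, read 5′ to 3′ on the strand of the gene, and the capitals mark GC boxes, the 6-letter motif GGGCGG on either strand, which is bound by SP1 family factors.

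CDKN2A, p16 start, chr9:21974858-21975107, minus strand: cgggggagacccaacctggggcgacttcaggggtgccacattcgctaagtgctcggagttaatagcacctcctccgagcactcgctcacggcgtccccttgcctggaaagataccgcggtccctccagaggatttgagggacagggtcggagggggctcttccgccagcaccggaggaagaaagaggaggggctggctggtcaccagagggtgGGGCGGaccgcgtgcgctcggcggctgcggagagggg
CDKN2B, chr9:22009306-22009555, minus strand: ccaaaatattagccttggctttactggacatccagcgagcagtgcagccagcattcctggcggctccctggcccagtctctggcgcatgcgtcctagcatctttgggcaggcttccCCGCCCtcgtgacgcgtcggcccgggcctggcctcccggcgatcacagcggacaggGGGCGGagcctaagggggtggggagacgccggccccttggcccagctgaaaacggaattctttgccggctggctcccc
CDKN1A, main p21 start, chr6:36678464-36678713, plus strand: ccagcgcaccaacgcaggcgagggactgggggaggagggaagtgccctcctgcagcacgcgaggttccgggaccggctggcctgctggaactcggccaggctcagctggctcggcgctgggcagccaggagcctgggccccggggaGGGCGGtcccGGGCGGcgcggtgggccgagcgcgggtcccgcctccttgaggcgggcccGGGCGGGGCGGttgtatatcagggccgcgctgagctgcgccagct

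The p16 promoter held 1 GC box, which begins 37 bases upstream of the start. CDKN2B held 2, at 134 and 78 bases, and CDKN1A held 4, at 104, 94, 45 and 40 bases, the last 2 overlapping by 1 base. A GC box was present at 7 of the 9 starts of these genes, against 42.6% of all 35116 RefSeq promoters of the same length. CACGTG, the E-box that MYC and MAX bind as a dimer, was present at 2 of the 9 starts, both of CDKN2C, against 6.34% of all promoters. CCAAT was present at 3 of the 9, against 32.0%. A letter match is a description of the sequence and not a bound site.

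Each PRO-Seq sample had between 28444943 and 46957634 reads in gene bodies, counted from 1 kb downstream of a start to the end of the gene. Promoter-proximal reads, counted in the busiest 50 bp window around a start, numbered between 518900 and 3386528. Their share of all counted reads followed the replicate number and not the construct, at 1.46% to 1.97% in replicate 1, 8.63% to 10.3% in replicate 2 and 4.21% to 5.13% in replicate 3. Samples of the same replicate number were compared within a block throughout. SMARCB1 had between 1 and 6 gene body reads in each EGFP and OmoMYC sample and at least 2870 in each SNF5 sample. The leukocyte marker PTPRC had at most 1 read in any sample. The study describes its PRO-Seq replicates as independent experiments, and cells of several plates were combined for each sample. All samples are bulk, so a change in every cell and a change in the share of cells that transcribe a gene cannot be told apart.

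In EGFP-expressing cells the CIP/KIP genes for p21 and p27 were transcribed far above the INK4 genes. Levels are given as RPKM values computed from the gene body counts, the gene body length and the scaled gene body total of each sample. CDKN1A was highest at 29.1 ± 5.57 (SD, n = 3), and CDKN1B followed at 15.2 ± 4.26. CDKN2D, at 3.43 ± 0.338, and CDKN2C, at 2.06 ± 0.934, overlapped in their samples. CDKN2C in turn overlapped CDKN1C, at 1.099 ± 0.469. The pair at 9p21 was lowest, with CDKN2A at 0.326 ± 0.0339 and CDKN2B at 0.133 ± 0.0475. The CDKN2A level is an average over the 25740 bp gene body of the listed ARF transcript. The p16 start lies 19634 bp downstream of the ARF start, so the place of CDKN2A in this order depends on the listed transcript. The level of CDKN1A was 218-fold that of CDKN2B, and no neighbours in this order other than those named overlapped.

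**Figure D1:**
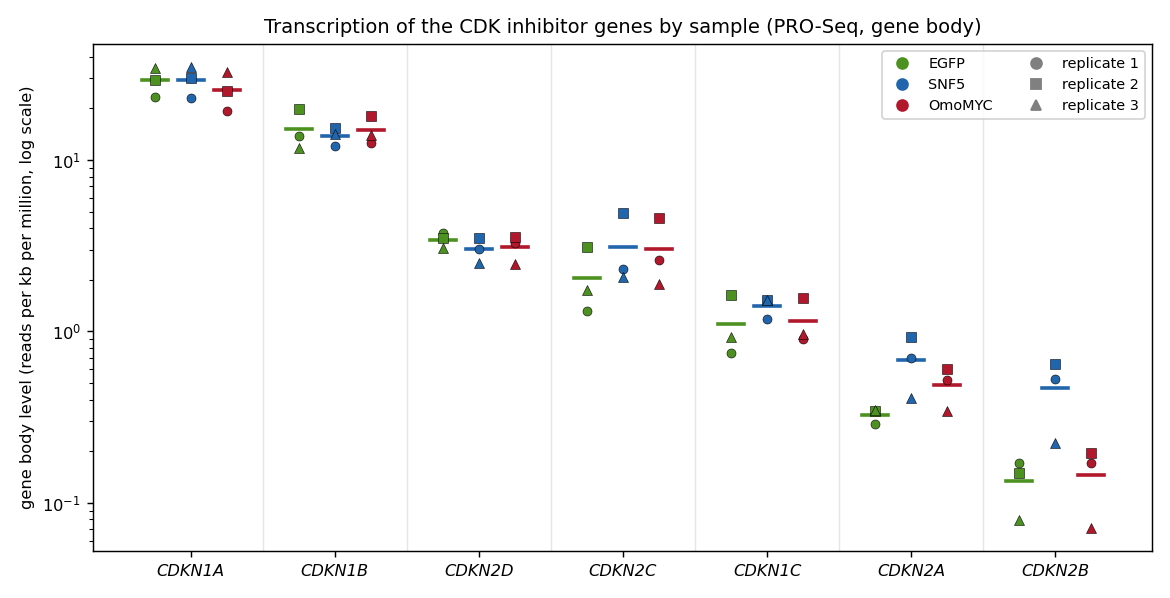
Gene body level of each CDK inhibitor gene in every PRO-Seq sample, as RPKM on a log scale. Points are samples (colour for construct, shape for replicate number) and bars are means of 3; CDKN2A and CDKN2B are the lowest genes, and in both all 3 SNF5 points lie above all 3 EGFP points.

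The reading of each gene depends on which start its listed transcript uses. CDKN1A is listed as NM_001220777 on chromosome 6 of hg19 from 36644237 to 36655116, and the main p21 start (36646491) lies 2254 bp inside it. CDKN2A is listed as NM_058195, the ARF transcript, on chromosome 9 from 21967751 to 21994490, and the p16 start (21974856) lies 19634 bp downstream of its start. Promoter-proximal counts of CDKN2A are therefore those of the ARF start, and its gene body counts hold polymerases from both the ARF and the p16 starts. CDKN2C is listed as NM_001262 on chromosome 1 from 51434367 to 51440306, and its main start (51435917) lies 1550 bp downstream, in its gene body. Promoter-proximal counts of CDKN1A and CDKN2C are therefore those of the listed start and not of the main one. Gene body counts of CDKN1A, CDKN2A and CDKN2C include any polymerases paused near the inner starts. Their gene body levels and changes are therefore not those of elongating polymerases alone. CDKN2B (NM_004936, chromosome 9 from 22002902 to 22009312), CDKN1B (NM_004064, chromosome 12 from 12870302 to 12875305), CDKN1C (NM_001122631, chromosome 11 from 2904448 to 2906995) and CDKN2D (NM_079421, chromosome 19 from 10677138 to 10679655) had their main start within 10 bp of the listed one. CDKN2B-AS1 (NR_003529) is listed on the plus strand of chromosome 9 from 21994790 to 22121093.

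The comparison of SNF5 with EGFP asks how transcription of these genes responded when the missing SWI/SNF subunit was put back. CDKN2B, CDKN2A and CDKN2C, 3 of the 4 INK4 genes, rose in their gene bodies, by 3.34-fold, 1.95-fold and 1.47-fold. CDKN2D and the 3 CIP/KIP genes did not pass the test, and none of the 7 fell. A call required an adjusted p below 0.05, from quasi-likelihood fits in edgeR to 15060 genes and the Benjamini-Hochberg procedure. With SNF5, 34.1% of all genes tested met this (17.6% rose and 16.5% fell), and the count of 3 of 7 is to be read against these shares. The median log2 fold change of the 7 genes was 0.43, against −0.03 for all genes. This middle value is that of CDKN1C, which did not pass the test.

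The gene body reads of CDKN2B, which encodes p15, were 32, 24 and 20 in EGFP replicates 1, 2 and 3, and 115, 124 and 54 in the SNF5 replicates. As levels (RPKM) these were 0.171, 0.149 and 0.0798 with EGFP and 0.526, 0.643 and 0.224 with SNF5. All 3 SNF5 samples lay above all 3 EGFP samples. Within replicate numbers the SNF5 level was 3.08, 4.31 and 2.81 times that of EGFP. The log2 fold change was 1.74 (standard error 0.24, 95% interval 1.19 to 2.29, adjusted p = 0.00113 from edgeR). It rests on few reads, 76 in the EGFP samples together, and without the replicate block its adjusted p was 0.179.

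CDKN2A gene body levels were 0.287, 0.343 and 0.348 with EGFP in replicates 1, 2 and 3. With SNF5 they were 0.702, 0.926 and 0.407, again with no overlap between the groups. The increase was unequal between replicates, at 2.45-fold, 2.70-fold and 1.17-fold. CDKN2A had a log2 fold change of 0.97 (standard error 0.21, 95% interval 0.49 to 1.45, adjusted p = 0.00873). The adjusted p was 0.0979 without replicate 1, 0.111 without replicate 2 and 0.180 without the replicate block, so the call rests on both of the first 2 replicates.

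CDKN2C, which encodes p18, had levels of 1.32, 3.11 and 1.74 with EGFP and 2.30, 4.93 and 2.07 with SNF5. The groups overlapped, because replicate 2 was the highest of its construct in each, but SNF5 was above EGFP within all 3 replicate numbers, by 1.74-fold, 1.59-fold and 1.19-fold. The log2 fold change was 0.56 (standard error 0.15, 95% interval 0.22 to 0.90, adjusted p = 0.0199). That call was lost without replicate 1 (adjusted p = 0.125), without replicate 2 (adjusted p = 0.187) and without the replicate block (adjusted p = 0.654).

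CDKN1A, which encodes p21, had the narrowest interval of the 7 genes, on both sides of 0. Its levels were 23.4, 29.4 and 34.5 with EGFP and 23.0, 29.97 and 34.8 with SNF5. The ratios within replicate numbers were 0.983, 1.02 and 1.01, and the log2 fold change was 0.005 with a 95% interval from −0.12 to 0.13 (adjusted p = 0.960). A change in gene body counts beyond 1.09-fold up or 0.920-fold down lay outside this interval. These counts hold polymerases from both CDKN1A starts, since the main start lies in the counted body. They include any polymerases paused near the main start, so a change in elongating polymerases alone was not measured.

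CDKN1B, which encodes p27, had a log2 fold change of −0.11 (95% interval −0.35 to 0.14, adjusted p = 0.482), from levels of 13.9, 19.9 and 11.7 with EGFP and 12.0, 15.3 and 14.2 with SNF5. It was lower with SNF5 in replicates 1 and 2 and higher in replicate 3, and without replicate 3 it fell by 0.30 on the log2 scale (adjusted p = 0.000421). CDKN1C, the imprinted gene for p57, had 0.43 (95% interval −0.10 to 0.96, adjusted p = 0.187), on 181 reads in the EGFP samples together. CDKN2D, the gene for p19, had −0.20 (95% interval −0.53 to 0.14, adjusted p = 0.331). In CDKN1C and CDKN2D the SNF5 and EGFP samples overlapped.

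Along 9p21, CDKN2B-AS1 on the other side of the ARF start rose too, while MTAP, the next protein-coding gene, did not pass the test. CDKN2B-AS1 rose 2.28-fold with SNF5 (log2 fold change 1.19, standard error 0.22, adjusted p = 0.00384), with levels of 0.0739, 0.0752 and 0.0950 with EGFP and 0.203, 0.251 and 0.131 with SNF5. Its ratios of 2.74, 3.34 and 1.38 in replicates 1, 2 and 3 had the same order as those of CDKN2A. Over the 9 samples, after the mean of each replicate number was taken out, the log2 levels of CDKN2A and CDKN2B-AS1 had a Pearson correlation of 0.99, which is given as a description, since all values of a sample share its library and depth. The call for CDKN2B-AS1 was lost without replicate 2 (adjusted p = 0.0519) and without the replicate block (adjusted p = 0.0776). MTAP, a methionine salvage gene on the other side of CDKN2A, had a log2 fold change of 0.04 (adjusted p = 0.795). FLJ35282, a transcript that starts 636887 bp beyond CDKN2B and is the next tested on that side, rose with a log2 fold change of 2.35 (adjusted p = 0.000488).

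CDKN2B lies inside CDKN2B-AS1 on the opposite strand, and the counts keep the strands apart. Of 195 gene bodies nested in one of the opposite strand, 31 had more reads than the gene around them, which counting without strand cannot give. CDKN2A and CDKN2B are paralogs, and the authors removed reads of low mapping quality, so how reads of any shared stretches were counted was not tested.

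Of the 10 other neighbours, 2 fell with SNF5 and 8 did not pass the test. Beside CDKN2D, which did not pass the test, its neighbour KRI1 (log2 fold change −0.38, adjusted p = 0.00443) fell with SNF5. CPNE5, a copine gene 162983 bp from the listed CDKN1A start, also fell (−0.25, adjusted p = 0.0142). The neighbours of CDKN2C, FAF1 (−0.12, adjusted p = 0.0743) and C1orf185 (0.28, adjusted p = 0.560), did not pass the test. Neither did GPR19 (0.10) and APOLD1 (0.08) beside CDKN1B, SRSF3 (0.03) beside CDKN1A, AP1M2 (−0.06) beside CDKN2D, or KCNQ1OT1 (0.14) and SLC22A18 (−0.15) beside CDKN1C.

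**Figure D2:**
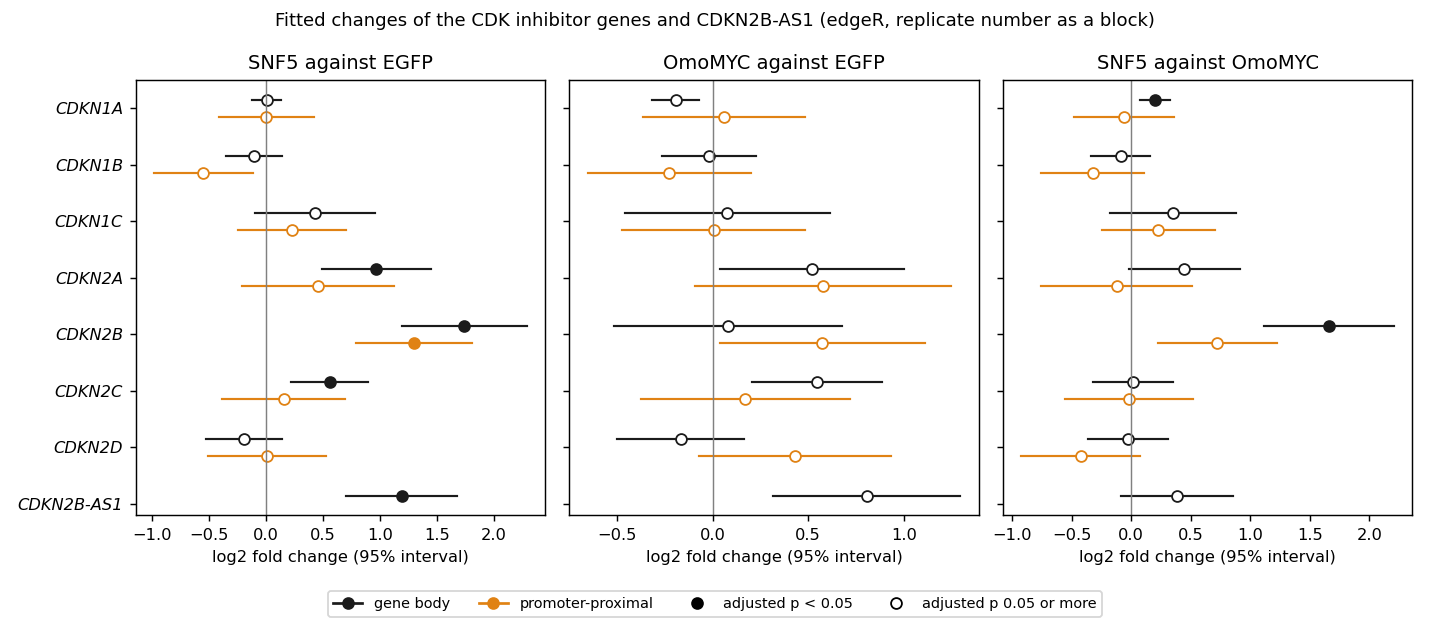
Fitted log2 fold changes of gene body and promoter-proximal counts with 95% intervals for the 7 genes and CDKN2B-AS1, in 3 panels, 1 for each comparison of constructs. Filled points passed an adjusted p of 0.05: in gene bodies CDKN2A, CDKN2B, CDKN2C and CDKN2B-AS1 with SNF5 against EGFP, and CDKN1A and CDKN2B with SNF5 against OmoMYC, and in promoter-proximal counts CDKN2B with SNF5 against EGFP.

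The comparison of OmoMYC with EGFP, which uses the same 3 EGFP samples, asks what these genes did when MYC was inhibited with SNF5 still absent. None of the 7 genes passed the test in edgeR, against 8.53% of all genes tested (4.1% rose and 4.42% fell). Of the 7, 3 had an unadjusted p below 0.05, and DESeq2 called 2, CDKN1A and CDKN2C. Here and below, shares of all genes under these other rules are not given, so such counts are not read as a result about these genes. CDKN2C had levels of 2.61, 4.61 and 1.89 with OmoMYC, ratios to EGFP of 1.98, 1.48 and 1.09, and a log2 fold change of 0.55 (95% interval 0.21 to 0.89, adjusted p = 0.0565). With SNF5 the same gene had 0.56. CDKN2A had 0.52 (95% interval 0.04 to 1.00, adjusted p = 0.145), from levels of 0.522, 0.603 and 0.343. CDKN1A had −0.19 (95% interval −0.32 to −0.07, adjusted p = 0.0604), from levels of 19.2, 25.2 and 32.7, lower than EGFP in all 3 replicate numbers. For CDKN2B it was 0.08 (95% interval −0.52 to 0.68, adjusted p = 0.870), from levels of 0.171, 0.195 and 0.0714. CDKN1B, CDKN1C and CDKN2D had values of −0.02, 0.08 and −0.17. CDKN2B-AS1 had 0.81 (adjusted p = 0.0521), with all 3 OmoMYC samples above the EGFP samples.

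As for SNF5, the ratios with OmoMYC were smallest in replicate 3 for CDKN2A (1.82, 1.76 and 0.986), CDKN2C and CDKN2B-AS1 (2.23, 2.25 and 1.16). Without replicate 3, 4 of the 7 genes passed the test: CDKN2A rose by 0.83 and CDKN2C by 0.75 on the log2 scale, CDKN1A fell by 0.26 and CDKN1B fell by 0.15. The number of genes called across the whole table rose in the same way, from 1284 to 6716, and with SNF5 from 5131 to 8493. Without replicate 1 or replicate 2 it fell, to 2 in either case with OmoMYC and to 1668 and 1428 with SNF5.

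**Figure D3:**
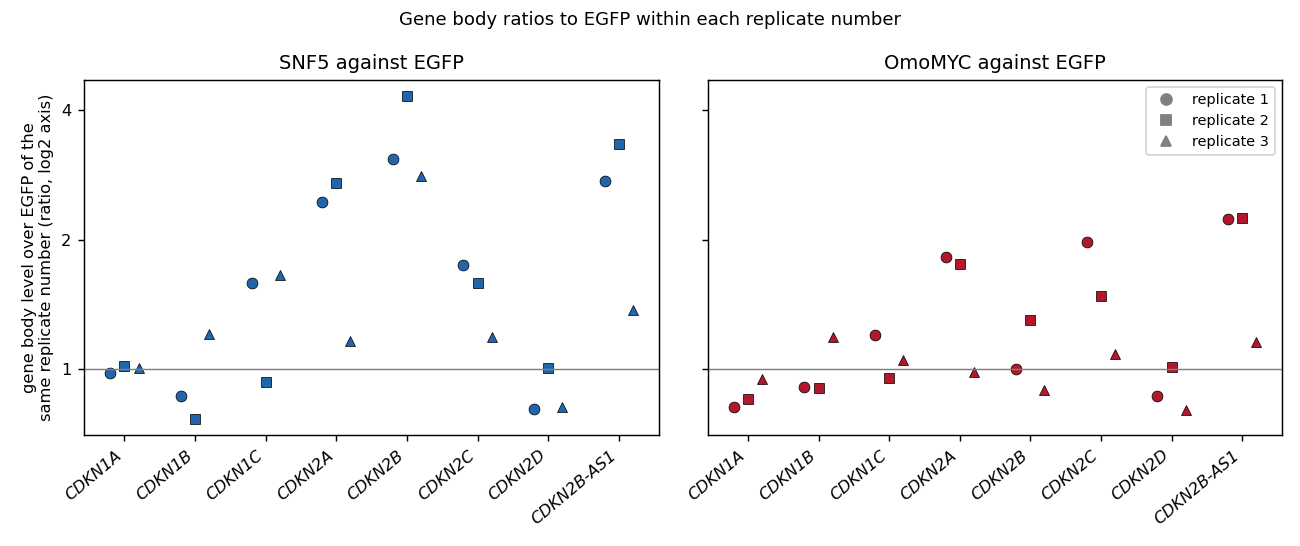
Gene body level of each gene with SNF5 or OmoMYC divided by that of the EGFP sample of the same replicate number, on a log2 axis where 1 is no difference. For CDKN2A, CDKN2B-AS1 and CDKN2C replicate 3 (triangles) has the smallest ratio with either construct, and CDKN2B is above 2 in all 3 replicates with SNF5 and between 0.894 and 1.30 with OmoMYC.

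The direct comparison of SNF5 with OmoMYC shows in which genes the constructs differed. CDKN2B was 3.16-fold higher with SNF5 (log2 fold change 1.66, 95% interval 1.12 to 2.21, adjusted p = 0.00199), and all 3 SNF5 samples lay above all 3 OmoMYC samples. CDKN1A was 1.15-fold higher (0.20, 95% interval 0.07 to 0.32, adjusted p = 0.0357). These were 2 of 7 genes, against 18.9% of all genes. CDKN2C did not pass, with a difference of 0.01 and an interval from −0.32 to 0.35 (adjusted p = 0.962). CDKN2A, at 0.45 (95% interval −0.02 to 0.91, adjusted p = 0.165), and CDKN2B-AS1, at 0.38 (−0.09 to 0.85, adjusted p = 0.231), did not pass either. The CDKN1A call was lost under TMM scaling (adjusted p = 0.0546), with totals alone (0.0695), without replicate 1 (0.346) or 2 (0.311), in a fit of these 2 constructs alone (0.0645) and without the replicate block (0.981). The CDKN2B call was lost without replicate 1 (0.0546) and without the block (0.317).

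Near the starts, CDKN2B was again the gene that moved with SNF5. Its promoter-proximal reads were 6, 101 and 78 in EGFP replicates 1, 2 and 3, and 22, 301 and 180 with SNF5. The groups overlapped across replicate numbers, which differ in their promoter-proximal share, but the SNF5 sample was higher in all 3. The change was 2.46-fold (log2 fold change 1.30, standard error 0.25, 95% interval 0.79 to 1.81, adjusted p = 0.00163 from edgeR over 11241 genes). It was 1 of 7 genes, against 4.27% of all genes tested. The call was lost without replicate 2 (adjusted p = 0.0912) and without the replicate block (adjusted p = 1.00).

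CDKN1B had promoter-proximal reads of 81, 359 and 210 with EGFP and 87, 290 and 107 with SNF5. Scaled for depth it was lower with SNF5 in all 3 replicate numbers, with a log2 fold change of −0.55 (95% interval −0.98 to −0.12, adjusted p = 0.129), which did not pass the test. At the ARF start of CDKN2A the reads were few, 55 with EGFP in all, and the change was 0.45 (95% interval −0.21 to 1.12, adjusted p = 0.459). CDKN1A (0.0006), CDKN2D (0.005), CDKN2C (0.15) and CDKN1C (0.23) did not pass. With OmoMYC none of the 7 passed, against 1.8% of all genes, with 1 at an unadjusted p below 0.05 and 0 called by DESeq2. The highest values were 0.58 for CDKN2A (adjusted p = 0.412) and 0.57 for CDKN2B (adjusted p = 0.280), beside a median of 0.13 over all genes in that comparison. Without replicate 3 both passed, at 1.07 (adjusted p = 0.0429) and 0.87 (adjusted p = 0.0496). For SNF5 against OmoMYC none passed, against 0.827% of all genes, with 1 at an unadjusted p below 0.05 and 0 called by DESeq2. CDKN2B had 0.72 there (adjusted p = 0.168) beside a median of −0.17 over all genes, and passed when promoter-proximal reads were scaled on their own (0.90, adjusted p = 0.0261).

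The pausing index, the density of promoter-proximal reads divided by that of gene body reads, differed widely among the 7 genes. CDKN2B had the highest index in each EGFP replicate, at 20.3, 455 and 422 in replicates 1, 2 and 3. These values rest on few reads, 32, 24 and 20 in the gene body and, in replicate 1, 6 near the start. CDKN1C had 17.0, 39.6 and 58.6, and CDKN2A had 14.1, 43.2 and 32.3. CDKN1B, at 3.37, 12.1 and 7.74, CDKN1A, at 5.16, 18.1 and 7.96, CDKN2D, at 9.09, 7.35 and 12.1, and CDKN2C, at 2.62, 11.3 and 28.3, were lower. The main start of CDKN1A and of CDKN2C, and the p16 start of CDKN2A, lie in the counted gene body. The indices of these genes are those of the listed start and do not measure pausing at these inner starts. In 6 of the 7 genes replicate 1, which had the smallest promoter-proximal share, gave the lowest EGFP index. CDKN2D was the exception.

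No change of pausing index passed the test for any of the 7 genes in any comparison in edgeR, against 3.66% of all 11171 genes with SNF5, 2.26% with OmoMYC and 1.23% for SNF5 against OmoMYC. With SNF5 none had an unadjusted p below 0.05, and 1 did in each of the others, and limma on log2 ratios called 0 in all 3. For CDKN2B the indices were 20.7, 263 and 361 with SNF5 and 71.0, 541 and 487 with OmoMYC. Its log2 change was −0.44 with SNF5 (95% interval −1.16 to 0.28, adjusted p = 0.544) and 0.60 with OmoMYC (−0.19 to 1.39, adjusted p = 0.497), beside a median of 0.14 over all genes with OmoMYC. Between SNF5 and OmoMYC it was −1.04 (−1.74 to −0.35, adjusted p = 0.125), lower in all 3 replicate numbers, beside a median of −0.13 over all genes. Without replicate 3 that difference was −1.31 (adjusted p = 0.0287).

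**Figure D4:**
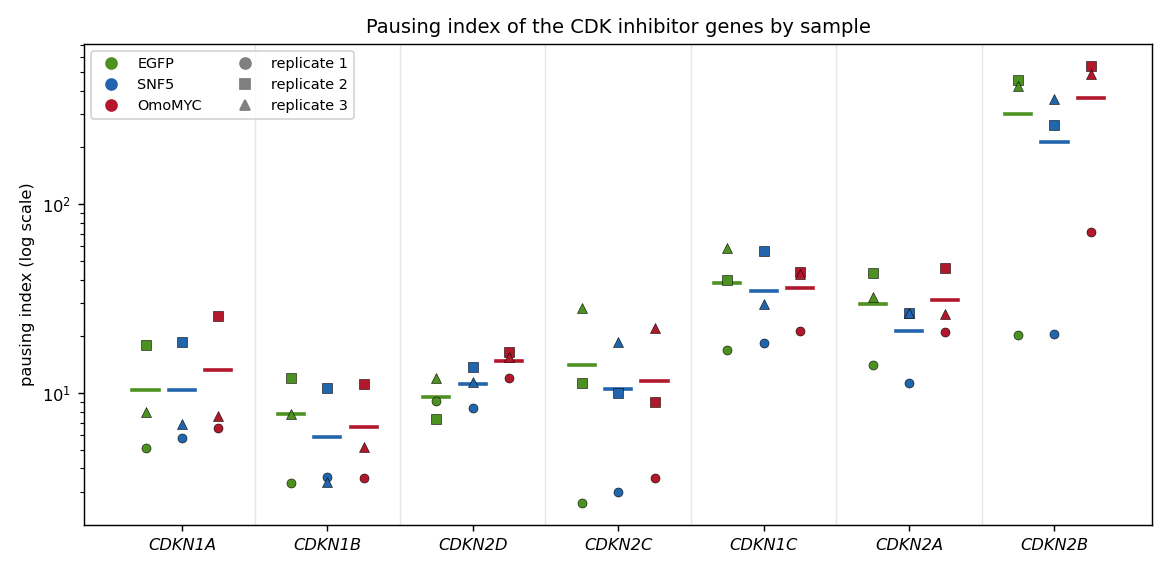
Pausing index of each CDK inhibitor gene in every PRO-Seq sample on a log scale, with genes in the order of their EGFP gene body level. Points are samples and bars are means of 3; CDKN2B reaches 541, and replicate 1 (circles) lies below replicates 2 and 3 in every gene and construct except CDKN2D with EGFP and CDKN1B with SNF5.

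MYC ChIP-Seq peaks at these genes were found in EGFP replicate 2 only. The deposited lists hold 940 and 5396 peaks for the EGFP samples, 137 and 27 for SNF5, and none for OmoMYC, where each list holds a single placeholder line. No list gives read counts, so binding below the authors' q-value threshold of 0.01 is not shown. A gene was called bound when a peak summit of both EGFP samples lay within 1 kb of its listed start. None of the 7 genes met this, against 4.31% of the 20367 genes in the table. All 7 peaks found within 50 kb of a listed start belonged to EGFP replicate 2. There CDKN1B and CDKN2D had a summit within 1 kb, as did 23.1% of all genes. With 7 genes, these counts cannot show a difference from the shares over all genes.

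The promoters of CDKN2D and CDKN1B each had a peak of EGFP replicate 2. The CDKN2D peak had its summit at 10679718 on chromosome 19 of hg19, 63 bp upstream of the start, with a fold enrichment of 6.03 over local background, and ranked 1982 of 5396 by q-value. The CDKN1B peak, with its summit 271 bp upstream of the start at 12870031 on chromosome 12, was near the threshold, with an enrichment of 3.29 and a rank of 5257. A further peak near each lay at a neighbour, 106 bp from the start of KRI1 and 183 bp from that of APOLD1. CDKN1C had 2 peaks, 6697 and 7045 bp upstream of its start. At CDKN2C the summit lay 8387 bp upstream of the listed start, 437 bp upstream of the first CDKN2C start in GENCODE and 44 bp from the start of FAF1 on the other strand. No peak lay within 50 kb of the starts of CDKN1A, CDKN2A or CDKN2B in any sample.

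The E-box CACGTG was present under the peaks at CDKN2C and CDKN1C and under none of the other 5. The 30 bases of hg19 around each, on the plus strand and with the E-box in capitals, show the motif to which MYC peaks are usually matched, which 57.9% of all peaks of EGFP replicate 1 and 33.0% of those of replicate 2 contain.

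CDKN2C and FAF1 peak, chr1:51425994-51426023: gctttgcggctcCACGTGaccaccctcctg
CDKN1C peak, chr11:2913702-2913731: agtgggaaacagCACGTGggcctcgcccgt

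The peak at CDKN2C had an enrichment of 4.22, and the one with the E-box upstream of CDKN1C had 5.20. Neither had a peak in EGFP replicate 1 or in an SNF5 sample.

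In ATAC-Seq, the p16 start was the site at these genes where a peak appeared with SNF5. Peaks of all 9 samples were merged into 40005 sites, and a site was called gained when all 3 samples of a construct and none of the 3 EGFP samples had a peak there. With SNF5 9.09% of all sites were gained, and 2.04% of genes had such a site within 1 kb of a start. Of the 27 sites within 50 kb of the 7 genes, 1 was gained with SNF5, which is no more than the share over all sites. None was lost, against 0.0075% of all sites, and with OmoMYC none was gained (0.0275% of all sites) or lost (0.0175%). The gained site lies on chromosome 9 of hg38 from 21974649 to 21975173 and covers the p16 start together with the promoter sequence given above. Its fold enrichments were 5.50, 6.02 and 6.73 in SNF5 replicates 1, 2 and 3, and 5.69 in OmoMYC replicate 2, and the other 2 OmoMYC samples and all EGFP samples had no peak there.

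The numbers of peaks per sample differed, from 9208 to 17817 with EGFP, 7260 to 23684 with OmoMYC and 22722 to 33596 with SNF5. With the 7260 strongest peaks of each sample, or with peaks of at least 10 in −log10 q, no site at these genes was gained, against 1.33% and 7.36% of all sites. At the ARF start, 2 adjacent sites had peaks in all 3 SNF5 samples, in EGFP replicate 2 and in OmoMYC replicate 2. The main p21 promoter of CDKN1A had the same pattern, with fold enrichments of 4.96, 4.59 and 3.90 with SNF5, 4.13 in EGFP replicate 2 and 4.55 in OmoMYC replicate 2. EGFP replicate 2 and OmoMYC replicate 2 had the most peaks of their constructs, and the part of peak number in these patterns was not tested further.

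The CDKN2B promoter had a peak with every construct. All 9 samples had a peak across its start, on chromosome 9 from 22008633 to 22009666. Its fold enrichments were 6.69, 8.19 and 8.56 with EGFP, 7.77, 10.2 and 10.0 with SNF5, and 4.998, 9.74 and 6.998 with OmoMYC. The means of 7.81 ± 0.991 with EGFP and 9.31 ± 1.34 with SNF5 (SD, n = 3) gave p = 0.3 in a two-sided exact permutation test, where 0.1 is the smallest p that 3 against 3 can give, so the test cannot show whether they differ. The SNF5 and EGFP samples overlapped, and the SNF5 value was the higher in each replicate number. OmoMYC, at 7.24 ± 2.38, gave an exact p of 0.7 against EGFP. At CDKN2C a site 116 bp upstream of its first start also had a peak in all 9 samples. Its means were 9.06 ± 0.887 with EGFP, 9.65 ± 1.03 with SNF5 (exact p = 0.5) and 8.83 ± 1.25 with OmoMYC (exact p = 0.8). FAF1 starts near this first start, on the other strand. The CDKN2C start at 50968706 on chromosome 1 had a peak in 3 EGFP, 3 SNF5 and 2 OmoMYC samples. Means there were 6.04 ± 1.63 with EGFP and 7.20 ± 1.27 with SNF5 (exact p = 0.3). The start at 50970245 had a peak in 1 EGFP, 2 SNF5 and 1 OmoMYC sample. The CDKN1B and CDKN2D promoters had a peak in all 3 SNF5 samples and in 2 EGFP samples, and CDKN1C in 2 SNF5 samples and 1 EGFP sample.

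Across 9p21, from MTAP to the end of CDKN2B-AS1, the merged peaks made 14 sites. Of these, 4 were gained with SNF5, where 9.09% of all sites were gained. Beside the p16 start these were 2 sites in MTAP, 162 and 143 kb from the p16 start, and 1 in CDKN2B-AS1, 129 kb on the other side. The span was drawn after the gained p16 site had been seen, and the count is given as a description. SNF5 samples had more peaks than EGFP samples. The p16 site was not gained with equal numbers of peaks, and the others were not recounted in that way. The site inside CDKN2B-AS1, on chromosome 9 from 22103267 to 22103560, had enrichments of 7.70, 8.62 and 7.26 in the SNF5 samples and no peak in any EGFP or OmoMYC sample.

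**Figure D5:**
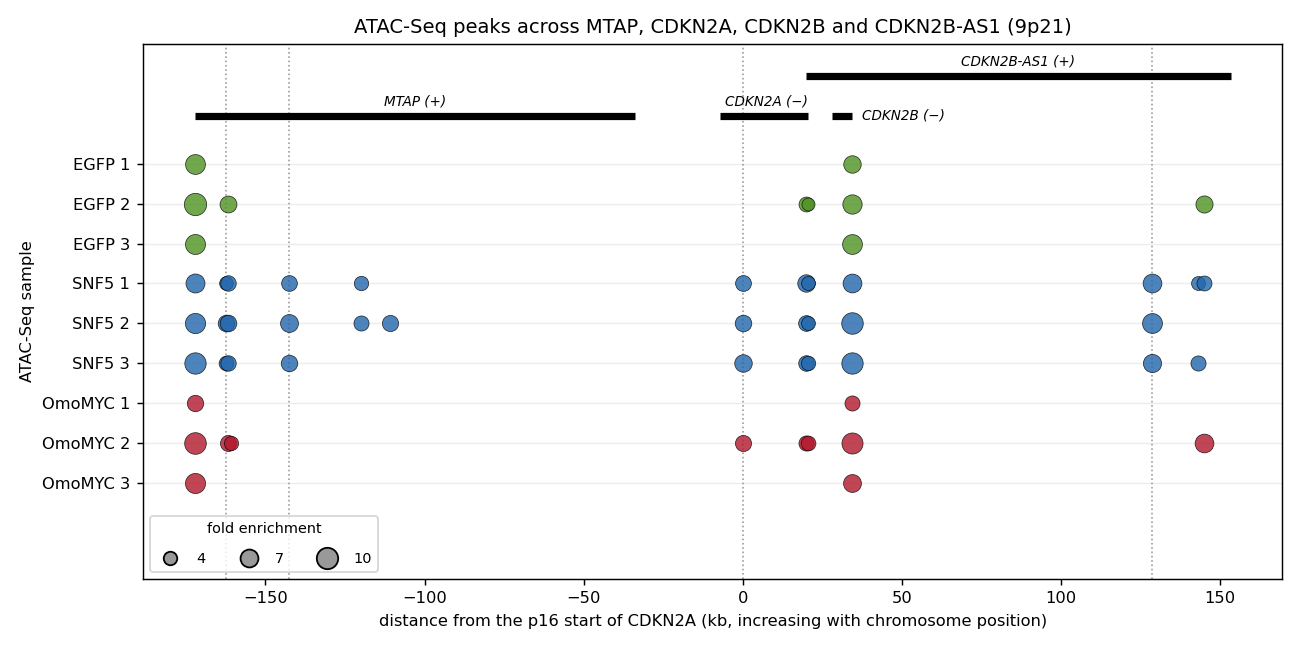
ATAC-Seq peaks of each sample across 9p21, by distance in kb from the p16 start, with circle area proportional to fold enrichment and bars for genes with their strand. Dotted lines mark the 4 sites gained with SNF5; the CDKN2B promoter at 34.3 kb has a peak in all 9 samples.

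The genes on which these inhibitors act and those that act with them were described from 3 lists. Of 21 G1 cyclins, CDKs, RB and E2F family members tested, 2 rose and 7 fell in their gene bodies with SNF5, where 17.6% of all genes rose and 16.5% fell, with a median log2 fold change of −0.14 beside −0.03 over all genes. CDK6, a partner of cyclin D and a target of p15, p16 and p18, rose (1.18, adjusted p = 4.4e-05), and so did RB1, the retinoblastoma gene (0.44, adjusted p = 0.000581). E2F2, which drives replication genes, fell (−0.82, adjusted p = 0.000466). With OmoMYC 1 rose and 6 fell, where 4.1% of all genes rose and 4.42% fell, among them E2F2 (−0.74, adjusted p = 0.0126), the E2F partner gene TFDP1 (−0.31, adjusted p = 0.0273) and CCND2, a D-type cyclin gene (−0.46, adjusted p = 0.0309).

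Among 18 E2F targets of the G1/S step none rose with either construct, while 6 fell with SNF5, against 16.5% of all genes, and 10 with OmoMYC, against 4.42%. Their medians were −0.27 and −0.38, beside −0.03 and −0.0003 over all genes. The replicative helicase genes MCM7 (−0.57, adjusted p = 0.000784) and MCM2 (−0.31, adjusted p = 0.0112) and the licensing factor gene CDT1 (−0.50, adjusted p = 0.0147) fell with SNF5. MCM7 (−0.40, adjusted p = 0.0256), MCM6 (−0.42, adjusted p = 0.0335) and the ribonucleotide reductase gene RRM2 (−0.55, adjusted p = 0.0269) fell with OmoMYC.

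Of 19 regulators known to act upstream of the CDK inhibitors, 2 rose and 4 fell with SNF5, against 17.6% and 16.5% of all genes, and 1 fell with OmoMYC, against 4.42%. FOXO3 (0.61, adjusted p = 0.000171) and FOXO1 (1.49, adjusted p = 0.00106), transcription factors that activate CDKN1B and other growth-arrest genes, rose with SNF5. SMAD3, the TGF-beta effector gene, fell with OmoMYC (−0.27, adjusted p = 0.0413). MYC itself had −0.46 with SNF5 (adjusted p = 0.140) and rose by 0.95 with OmoMYC (adjusted p = 0.0378), where its counts include any transcripts of the introduced mutant. Its OmoMYC levels were 33.6, 87.7 and 30.2 RPKM against 23.3, 28.3 and 19.8 with EGFP, so replicate 2 stood apart. Without replicate 2 the change was 0.58 (adjusted p = 0.388), and without replicate 1 the adjusted p was 0.459. For all genes named in these 3 lists except MCM7 and FOXO3 with SNF5, and for KRI1, CPNE5 and FLJ35282, the call was lost without the replicate block, as were most calls across the table, which went from 5131 to 225 with SNF5 and from 1284 to 1 with OmoMYC. Every OmoMYC call named from these lists was also lost without replicate 1 and without replicate 2, with adjusted p between 0.384 and 0.514. With SNF5 the calls of MCM2, CDT1, KRI1 and CPNE5 were lost without either of these replicates, and those of the other genes named from the lists passed without each replicate in turn.

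Genes whose gene body levels followed those of a CDK inhibitor most closely over the 9 samples, after the mean of each replicate number was taken out, are given by Pearson correlation as a description. For CDKN2B they were HEG1 (0.998), SMARCB1 (0.998), whose counts include any transcripts of the introduced SNF5 construct, and SLC5A9 (0.997). These genes rose with SNF5 by 1.80, 9.74 and 4.78 on the log2 scale and had 0.08, −0.0006 and 0.33 with OmoMYC. For CDKN2C they were CAPN9 (0.990), ABCC12 (0.989) and FBLN2 (0.989), with 2.26, 2.40 and 0.71 with SNF5 and 1.94, 2.22 and 0.71 with OmoMYC. For CDKN2A they were PAPSS1 (0.995) and ARNTL2 (0.994), with 0.47 and 0.36 with SNF5 and 0.25 and 0.20 with OmoMYC. CDKN1A was closest to CAMLG (0.991), CDKN1B to C17orf48 (0.996), CDKN1C to DNAJC21 (0.988) and CDKN2D to KIF26A (0.977). Such values arise among 15060 genes of which the best were taken, and the samples share libraries and depth. Among the 7 genes, CDKN2A had correlations of 0.88 with CDKN2C and 0.78 with CDKN2B, and of −0.74 with CDKN1B.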

How the data were processed

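PRO-Seq was measured in 9 samples, ATAC-Seq in 9 and MYC ChIP-Seq in 6 of G401 cells, 24 of the 30 samples in the series. IgG samples had no file and were not analysed here. The deposited PRO-Seq table holds read counts per RefSeq transcript, and the density of gene body reads per base, which the authors made with NRSA. Before that, reads had been turned to the other strand with FastX and placed on hg19 by Bowtie2, and ribosomal reads and poorly mapped ones had been dropped. For MYC ChIP-Seq (hg19, q below 0.01) and ATAC-Seq (hg38, adapters removed with cutadapt, q below 0.001) the authors called peaks in each sample with MACS2 and deposited lists with fold enrichment (a ratio to local background) and −log10 q.

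Counts were tested with edgeR 4.0.16 (quasi-likelihood, R 4.3.3), with limma 3.58.1 and DESeq2 1.42.0 as alternatives, on 1 transcript per symbol with a mean of at least 10 counts. All 9 samples entered 1 fit with the replicate number as a block, RLE factors from gene bodies scaled both regions, and the pausing index was tested as the interaction of region and construct. P-values were Benjamini-Hochberg adjusted over all genes tested. Deviations from the construct means of samples with the same replicate number correlated at 0.753 to 0.882 in gene bodies and those of other samples at −0.668 to 0.126, and the block rests on this check. The scripts were tested on simulated data with known changes.

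Genes named were the 7 CDK inhibitor genes, SMARCB1 and MYC, the nearest tested gene on each side with CDKN2B-AS1, KCNQ1OT1 and MTAP, the 3 genes with the highest correlation to each (log2 of scaled counts plus 0.5), and up to 3 genes of each list with the smallest adjusted p among those called. Some genes that this rule names, and 1 list, are not reported here. The members and lists were chosen with earlier results of these data known. ATAC-Seq peaks were merged into sites where they overlapped by any base, and fold enrichments were compared by exact permutation tests with SciPy 1.17.1. Peak lists give no depth. Coordinates of hg19 and hg38 were not converted into each other.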

Additional observations from a re-analysis of the deposited data

How the results depend on the processing

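Of 303 alternative values for the 7 genes, 260 kept their direction and side of the threshold, 17 lost a call, 14 gained one and 12 turned sign, all 12 between small values. Of 341 values for the other 26 named genes, 59 lost a call, 8 gained one and none turned sign. CDKN1A with SNF5 turned to −0.017 under TMM scaling and −0.00085 with no filter on low counts, and without 1 replicate it ranged from −0.0085 to 0.014. Without 1 replicate CDKN1B ranged from −0.30 to 0.048 with SNF5 and from −0.15 to 0.062 with OmoMYC, where it was 0.033 with gene body totals alone. With OmoMYC and without 1 replicate, CDKN1C ranged from −0.0012 to 0.18 and CDKN2B from −0.060 to 0.17. CDKN2C between SNF5 and OmoMYC was −0.040 with totals alone and ranged from −0.032 to 0.11 without 1 replicate.

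Without the replicate block, 0 of the 7 genes were called in gene bodies with SNF5, between SNF5 and OmoMYC, and in promoter-proximal counts with SNF5, and 31 of 58 values for named genes lost their call. Leaving out a replicate gave 1 to 4 genes called in gene bodies with SNF5 (CDKN2B alone without replicate 1 or 2), 0 to 4 with OmoMYC and 0 to 4 between SNF5 and OmoMYC. Calls over all genes moved as well, with SNF5 from 5131 to 1668, 1428 and 8493 without replicates 1, 2 and 3. It gave 0 to 1 in promoter-proximal counts with SNF5, 0 to 2 with OmoMYC, and 0 to 1 for the pausing index between SNF5 and OmoMYC. With OmoMYC, gene body calls numbered 1 with no filter on low counts and 2 in DESeq2. Between SNF5 and OmoMYC they numbered 1 under TMM scaling or with totals alone, and promoter-proximal calls numbered 1 with a scaling of their own, which moved the median of all genes from −0.17 to 0.00. The cause of these changes was not tested.

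With a summit in either EGFP sample, or without EGFP replicate 1, 2 genes had a MYC peak, and 3 when any GENCODE start was taken, an alternative chosen after seeing the data. ATAC-Seq sites gained with SNF5 numbered 0 of 15 with −log10 q of at least 10 (7.36% of all sites), 0 of 11 with the same number of top peaks (1.33%), 4 of 27 when 2 of 3 samples sufficed (22.3%), and 2 to 6 of 27 without 1 replicate (11.2% to 20.6%). Few reads limit CDKN2B and the CDKN2A start, and peak lists without counts limit the MYC and ATAC-Seq comparisons.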
